A study of Mus musculus with 59 samples.

Results

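The 19 libraries described here are the fluoxetine and vehicle libraries of the mice labelled heterozygous (HT) for the Chd8-S62X allele, out of 59 libraries in the series. They were chosen by their labels alone: 9 fluoxetine libraries (4 female, 5 male) and 10 vehicle libraries (5 female, 5 male). Both groups came from C57BL/6J mice carrying the HT label at Chd8, and prefrontal cortex was taken on postnatal day 25. Pups were exposed through the milk of their dams from day 3 to day 24, to fluoxetine in one group and to vehicle in the other. The labels give neither the dose nor a drug level in the pups, and they name no dam, litter or animal. The p-values below therefore measure the spread between libraries, which may be technical, and a difference between the treated dams or litters cannot be told apart from a difference between treatments. The matching 20 libraries of wild-type (WT) mice, 10 with fluoxetine and 10 with vehicle, were handled in the same way and serve as the comparison.

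Fluoxetine is a selective serotonin reuptake inhibitor. It blocks the transporter Slc6a4, which returns released serotonin to the nerve terminal, so that serotonin stays longer at its receptors. Serotonin neurons have their cell bodies in the raphe nuclei of the brainstem and send axons into the prefrontal cortex, whereas the receptors are made by the cortical cells themselves. CHD8 is a chromatin remodelling enzyme of the CHD family, and loss-of-function mutations of its gene are among the recurrent single-gene findings in autism.

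The level of Chd8 was examined first, since it bears on the genotype label. Chd8 (ENSMUSG00000053754, GRCm38 chromosome 14, 52198151 to 52257780, minus strand) was at 5513 to 6626 normalized counts with a median of 5907 in the 9 fluoxetine libraries. In the 10 vehicle libraries it was at 5115 to 6215 with a median of 5804. The 2 groups overlapped, the log2 difference was 0.055 ± 0.048 (SE), and an exact two-sided permutation test within sex gave p = 0.215. The WT-labelled vehicle libraries were lower, at 3237 to 3857 normalized counts with a median of 3568, and so did not overlap with any of the 19. The RNA of the mutated gene was thus higher, not lower, in the libraries labelled HT, and the genotype is written as HT-labelled and WT-labelled throughout. Normalized counts are the values that the authors deposited, counts scaled for each library, and all log2 differences are fluoxetine minus vehicle on log2(normalized count + 1).

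The 19 libraries summed to 30.3 to 33.5 M normalized counts, and their depth was estimated at 29.2 to 36.4 M reads. Markers of excitatory cortical neurons were abundant in every library, with a summed level of 160648 to 269442 normalized counts over 11 genes including Slc17a7 and Neurod2. Markers of neighbouring regions varied between libraries. The summed level of 9 olfactory bulb genes ran from 378 to 17635 normalized counts and that of 15 striatal projection neuron genes from 9361 to 30732. No listed marker that entered the tests was at 0 in all 19 libraries. In 3 of the 19 libraries the striatal markers exceeded the series median by more than 5 robust SDs: HT fluoxetine female replicates 1 and 2 and HT vehicle female replicate 3. These, and 5 more among the other 40 libraries, are called striatal-rich. Of the medians of the 48 gene lists below, 8 changed sign when those 8 libraries were left out of the fit and 22 more moved by over 1.5 times. The value without them stands beside each such list.

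No gene differed between fluoxetine and vehicle in the HT-labelled libraries at a Benjamini-Hochberg adjusted p under 0.05 (limma, 0 of 16839 genes, 0%). The smallest adjusted p was 0.716. At an unadjusted p under 0.05, limma gave 857 genes (5.09%), of which 414 were higher with fluoxetine (2.46%) and 443 lower (2.63%). Log2 differences were above 0 for 8770 genes (52.1%), and their median over all genes was 0.0040. The median SE was 0.0746, which limits the differences that could be detected. The 95% confidence interval of the difference lay within 1.5-fold in either direction for 14828 genes (88.1%) and within 2-fold for 16391 (97.3%). An interval of that width bounds a difference and does not show that a gene was unchanged.

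**Figure D1:**
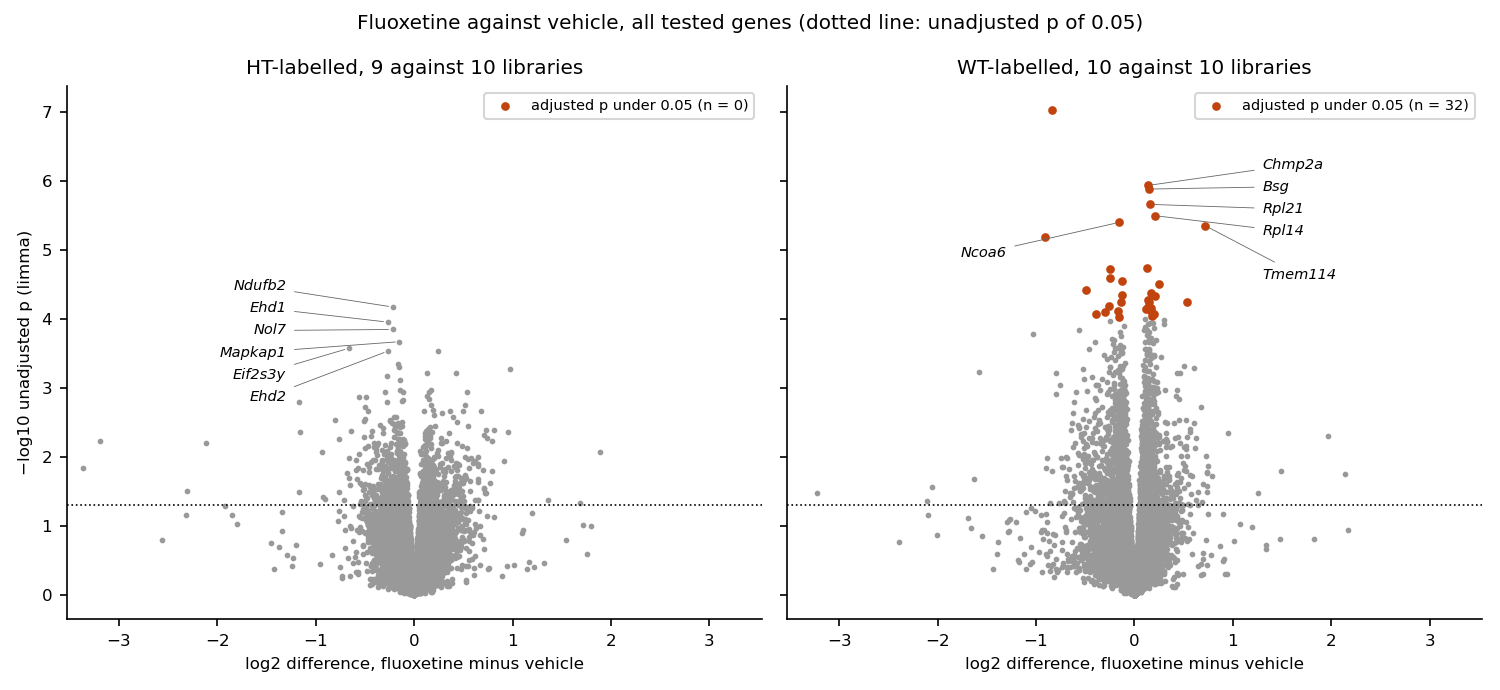
Log2 difference between fluoxetine and vehicle (x axis) and −log10 of the unadjusted limma p (y axis) for every tested gene, in HT-labelled libraries (left) and WT-labelled libraries (right). Orange points passed an adjusted p of 0.05, which 0 genes did in the HT-labelled and 32 in the WT-labelled libraries.

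The genes with the smallest p are given next as descriptions, 12 in each direction among genes averaging 50 or more normalized counts. Among those with lower levels, Ndufb2, an accessory subunit of mitochondrial complex I, came first. Ndufb2 (chromosome 6, 39592574 to 39603382, plus strand) was at 1059 to 1370 normalized counts with fluoxetine (median 1149) and at 1226 to 1617 with vehicle (median 1361). Of the 9 fluoxetine values 6 lay below all vehicle values, and the other 3 lay within the vehicle range. The log2 difference was -0.22 ± 0.050, or 0.86-fold, with a 95% interval of -0.32 to -0.12.

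Ehd1, an ATPase that returns endocytosed membrane proteins to the cell surface, came second. Ehd1 (chromosome 19, 6276725 to 6300096, plus strand) was at 930 to 1298 normalized counts with fluoxetine (median 1035) and at 1030 to 1463 with vehicle (median 1278). In females the groups did not overlap, with 942 to 1087 normalized counts against 1228 to 1463, whereas in males they did. The log2 difference was -0.27 ± 0.064. Its relative Ehd2, which stabilises caveolae at the cell surface, was at 207 to 289 normalized counts with fluoxetine (median 272) against 271 to 405 (median 315), a log2 difference of -0.27.

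Mapkap1 encodes the SIN1 subunit of the kinase complex mTORC2. Its level was 1224 to 1378 normalized counts with fluoxetine (median 1323) and 1305 to 1521 with vehicle (median 1480), a log2 difference of -0.15. A single vehicle library, male replicate 2 at 1305, lay among the fluoxetine values, and the other vehicle libraries lay above all of them. Il6st, the shared gp130 receptor subunit of the interleukin-6 family of cytokines, was at 2524 to 2798 against 2685 to 3264 normalized counts, a log2 difference of -0.15. Nol7, a nucleolar protein, had a log2 difference of -0.22, and Taf6, a subunit of the general transcription factor TFIID, one of -0.16. Adamtsl2, a secreted matrix glycoprotein, had the largest difference of the lower genes other than Eif2s3y, at -0.30, with 290 to 366 normalized counts (median 318) against 321 to 484 (median 391). The other lower genes were Trir (-0.16), Nhsl1 (-0.14) and Gm3693 (-0.28). Gm3693 is annotated as an antisense RNA. The kit keeps the strand of the RNA, but whether reads were counted by strand is not given in the sources used here, so its value is uncertain.

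Eif2s3y, on the Y chromosome, also entered this group and is no measure of treatment in both sexes. Female libraries held 0 to 4.19 normalized counts of it, so their log2 difference is one between values at or near 0. In males it was at 1430 to 2197 normalized counts with fluoxetine (median 1712) and 1668 to 2239 with vehicle (median 1950), and these overlapped.

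On the higher side the smallest p belonged to Hunk, a kinase related to the AMP-activated protein kinase family. Hunk (chromosome 16, 90386013 to 90499553, plus strand) was at 471 to 641 normalized counts with fluoxetine (median 568) and 410 to 569 with vehicle (median 479). The log2 difference was 0.24 ± 0.062, with a 95% interval of 0.12 to 0.37. Its WT-labelled values lay in the same order, at 493 to 603 with fluoxetine (median 572) and 454 to 564 with vehicle (median 523), with overlap.

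Sspo, which encodes SCO-spondin, a giant glycoprotein that the subcommissural organ secretes into the cerebrospinal fluid, had the largest difference among the 12 higher genes. Sspo (chromosome 6, 48448229 to 48501250, plus strand) was at 49.4 to 149 normalized counts with fluoxetine (median 92.7) and at 31.8 to 58.5 with vehicle (median 49.5). Most fluoxetine libraries lay above all vehicle libraries, but female replicate 4 (49.4) and male replicate 5 (56.0) lay within the vehicle range. The log2 difference was 0.97 ± 0.263, or 1.96-fold, with a 95% interval of 0.44 to 1.5. The WT-labelled libraries ran from 21.8 to 148 with fluoxetine and from 37.4 to 78.3 with vehicle.

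Dnah9, a heavy chain of the dynein that drives motile cilia, was at 64.0 to 213 normalized counts (median 147) against 35.1 to 150 (median 91.5), a log2 difference of 0.68. Lrrc56, which is needed to assemble ciliary dynein arms, was at 121 to 159 (median 137) against 97.3 to 139 (median 109), a log2 difference of 0.28. Foxj1, the transcription factor that switches on motile cilium genes, had a log2 difference of -0.12 ± 0.13, below 0. The 6 tested members of the choroid plexus and ependyma marker list, the ciliated and secretory cells lining the ventricles, had a median of -0.071.

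Wdr70 was at 654 to 705 normalized counts (median 681) against 575 to 677 (median 619), a log2 difference of 0.13, with 6 of the 9 fluoxetine libraries above every vehicle library. Urm1, a ubiquitin-like protein that carries sulphur to transfer RNA, had a log2 difference of 0.17, and Mrpl21, a protein of the mitochondrial ribosome, one of 0.15. Il1rap, the accessory protein of the interleukin-1 receptor, was at 1254 to 1637 (median 1498) against 1124 to 1508 (median 1311), a log2 difference of 0.17. Lrrc8d, a subunit of volume-regulated anion channels, differed by 0.15, Esd, an esterase that detoxifies formaldehyde adducts, by 0.13, Drg1, a GTPase, by 0.10 and Fam229b by 0.20.

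**Figure D2:**
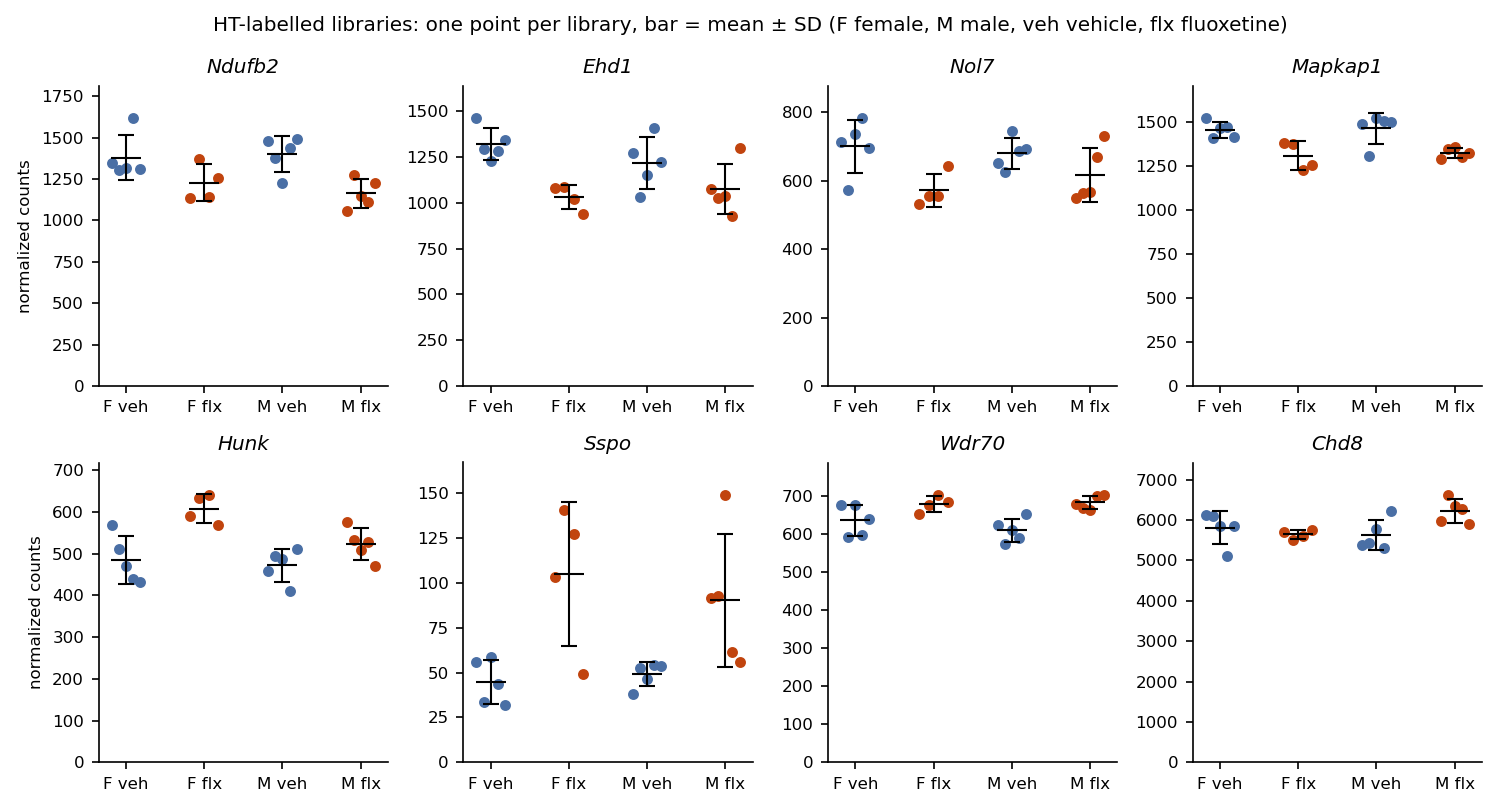
Normalized counts of 8 genes (y axis) in each HT-labelled library by sex and treatment (x axis), with mean ± SD. Ndufb2, Ehd1, Nol7 and Mapkap1 sit lower and Hunk, Sspo and Wdr70 higher with fluoxetine, with overlap of the 9 and 10 libraries for each, and Chd8 shows no common direction in the 2 sexes.

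No gene separated the 9 fluoxetine libraries from the 10 vehicle libraries without overlap. Within each sex, 2 genes did so with the same direction in both (0.0119% of those tested), and both were higher with fluoxetine. These 2 were singled out after their values were seen. Mettl1, which methylates transfer RNA, was at 253 ± 2.11 normalized counts in fluoxetine females (SD, n = 4) and 225 ± 13.1 in vehicle females (SD, n = 5). In males Mettl1 was at 248 ± 7.45 (SD, n = 5) against 229 ± 10.2 (SD, n = 5), and the pooled log2 difference was 0.14 ± 0.048. Gm42918, for which no function is given, was at 46.7 ± 4.57 against 34.4 ± 3.91 normalized counts over both sexes (SD, n = 9 and 10), a log2 difference of 0.44 ± 0.15. Neither passed the adjustment, with limma adjusted p = 0.906 for each.

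Female and male libraries are pooled in these values, so the difference between the sexes was tested as well. No gene had a fluoxetine difference that departed between males and females at an adjusted p under 0.05 (limma, 0 of 16839, 0%), 399 genes (2.37%) reached an unadjusted p under 0.05, and the smallest adjusted p was 0.999986. Taken alone, the females gave 544 genes (3.23%) and the males 752 (4.47%) at an unadjusted p under 0.05, and 0 after adjustment in either sex.

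Tbx4, a T-box transcription factor, had the smallest p for the sex difference and is a low gene in this tissue. In males its values were 11.8, 3.77, 2.91, 5.31 and 11.1 normalized counts with fluoxetine and 14.3 to 17.3 with vehicle, with no overlap. In females they were 12.3 to 20.8 against 10.2 to 19.9. The log2 differences were -1.24 in males and 0.22 in females. Znhit6, a factor in the assembly of small nucleolar ribonucleoproteins, followed with a male minus female difference of 0.44 ± 0.114, and Swt1, a nuclear RNA endonuclease, with one of 1.25 ± 0.330.

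The same contrast in the WT-labelled libraries, which share no library with the 19, called 32 genes (0.19%), of which 18 rose and 14 fell with fluoxetine, and 2104 (12.5%) had an unadjusted p under 0.05. In the HT-labelled libraries 22 of those 32 genes had the same sign. An unadjusted p under 0.05, which 5.09% of all genes had there, was reached by 5: Rpl14, Cdc73, Ncoa6, Rps15 and Edf1. The median absolute log2 difference of the 32 was 0.17 in the WT-labelled libraries, whose values chose the genes, and 0.049 in the HT-labelled libraries. Rpl14, a protein of the large cytosolic ribosomal subunit, had log2 differences of 0.20 ± 0.039 in WT-labelled and 0.12 ± 0.040 in HT-labelled libraries. Cdc73, a subunit of the PAF1 transcription elongation complex, had -0.25 ± 0.054 in WT-labelled and -0.17 ± 0.055 in HT-labelled libraries, where it was at 1375 to 1752 normalized counts with fluoxetine (median 1565) against 1592 to 1950 (median 1750). Over all tested genes, 57.7% had the same sign in both genotypes and the correlation of the differences was 0.125, a value across genes, which are not independent replicates.

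The difference between the 2 genotypes in the fluoxetine effect passed the adjustment for 0 of 16839 genes (limma, 0%), with 1040 genes (6.18%) at an unadjusted p under 0.05 and a smallest adjusted p of 0.607. That 32 genes were called in one genotype and 0 in the other is therefore not by itself a difference between them. Wnt2b, a secreted Wnt ligand, had the largest of the leading 3 interaction values, 0.67 ± 0.158. It was at 35.0 to 61.4 normalized counts with fluoxetine (median 54.3) and 34.3 to 51.3 with vehicle (median 38.5) in HT-labelled libraries. In WT-labelled libraries the order was the other way round, 28.5 to 52.9 (median 38.5) against 36.6 to 62.2 (median 46.8). Particl, a long noncoding RNA, had an interaction of -0.37 ± 0.088, with 226 to 301 normalized counts (median 253) against 275 to 318 (median 287) in HT-labelled libraries. Nfia, a transcription factor of glial development, had an interaction of 0.31 ± 0.077. In HT-labelled libraries it was at 1244 to 1579 against 1146 to 1455 normalized counts, and in WT-labelled libraries, where it fell and was among the 32, at 970 to 1313 against 1294 to 1687.

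Whether fluoxetine moved the genes that carry the genotype label was examined next. Between vehicle libraries, 34 genes (0.202%) differed by genotype at an adjusted p under 0.05. These values share the HT vehicle libraries with the fluoxetine comparison, so they are set side by side and not related to each other. The fluoxetine differences of the 34 genes ran from -0.17 to 0.23, and 0 passed the adjustment (limma). An unadjusted p under 0.05, which 5.09% of all genes had, was reached by 3: Pcdhga9, Gabpa and Zkscan16. Gabpa, an ETS family transcription factor, differed by 0.25 ± 0.057 between HT-labelled and WT-labelled vehicle libraries and by -0.13 ± 0.059 between fluoxetine and vehicle. Chmp2a, a subunit of the ESCRT-III membrane-cutting complex, differed by 0.24 ± 0.025 and by 0.026 ± 0.025.

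A list of 11 genes earlier seen to track the label on these same samples is no independent evidence of a direction. Of its members, 6 lay above 0 and 5 below, with a median of 0.018. Ehd1, described above, and Piga, an enzyme of glycosylphosphatidylinositol anchor synthesis (0.14 ± 0.058), had an unadjusted p under 0.05, against 5.09% of all genes. Oard1, which removes ADP-ribose from proteins, had 0.092 ± 0.053.

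The gene groups below are described by how many tested members had a log2 difference above or below 0 and by their median, to be read beside the 52.1% of all genes above 0 and the median of 0.0040. Counts at an unadjusted p under 0.05 are to be read beside 2.46% higher and 2.63% lower over all genes. No member of any group passed the adjustment over all genes in the HT-labelled libraries. The members named are from the 3 with the smallest p in each group, and further ones were chosen after their values were seen.

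The serotonin receptors are the proteins on which raised serotonin acts. Of 14 listed, 12 were tested, and Htr2b and Htr3b were below the expression limit, a mean of 10 normalized counts over the 59 libraries. Their log2 differences were above 0 for 8 and below for 4, with a median of 0.060, and 0 had an unadjusted p under 0.05. Htr7, coupled to cyclic AMP production, was at 189 to 262 normalized counts with fluoxetine (median 224) and 173 to 246 with vehicle (median 205), a log2 difference of 0.10 ± 0.073. Htr1a, the inhibitory receptor that also serves as the autoreceptor of serotonin neurons, was at 616 to 929 (median 685) against 430 to 898 (median 669), a log2 difference of 0.13 ± 0.107. Htr3a, the ion channel of a class of cortical interneurons, was at 170 to 231 (median 206) against 190 to 233 (median 218), a difference of -0.086 ± 0.077. For each of these the 2 groups overlapped over most of their range. Htr2a, the main excitatory receptor of cortical pyramidal cells, had a log2 difference of 0.046 ± 0.076, and Htr2c one of 0.081 ± 0.15.

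Genes that make, move and break down serotonin were next. Slc6a4, the target of fluoxetine, was below the expression limit, as was Gchfr, and 9 of 11 genes were tested. Log2 differences were above 0 for 3 and below 0 for 6, with a median of -0.046 (-0.10 without the striatal-rich libraries), and 1 gene had an unadjusted p under 0.05. That gene was Slc29a4, the plasma membrane monoamine transporter, which takes up serotonin with low affinity. It was at 376 to 646 normalized counts with fluoxetine (median 450) and 493 to 722 with vehicle (median 558). Its log2 difference was -0.25 ± 0.098 in the HT-labelled libraries, -0.24 in females and -0.25 in males, and 0.13 in the WT-labelled libraries. Slc22a3, the other low-affinity transporter tested, had -0.19 ± 0.146. Tph1, an enzyme of serotonin synthesis outside the brain, was near the limit at 3.80 to 16.6 against 6.54 to 21.2 normalized counts and had -0.47 ± 0.278. Maoa and Maob, the enzymes that degrade serotonin, had 0.035 ± 0.035 and 0.069 ± 0.059.

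Neurotrophins are growth factors that antidepressant drugs have long been studied for. Of 13 tested genes 8 lay above 0, with a median of 0.030, and 0 had an unadjusted p under 0.05. Bdnf had a log2 difference of 0.030 ± 0.105 and its receptor Ntrk2 one of 0.012 ± 0.028. The 3 leading members were Ntf3, the ligand of Ntrk3 (0.39 ± 0.202), Ngfr, the low-affinity receptor (0.33 ± 0.192), and Vgf, a secreted neuropeptide precursor (0.20 ± 0.118). Immediate early genes, which neurons switch on within minutes of activity, gave 4 of 20 above 0 and a median of -0.054, with 0 at an unadjusted p under 0.05. Their medians were 0.14 in females and -0.23 in males, and -0.16 over both sexes without the striatal-rich libraries. The male value has no clear direction by library. The summed level in males was 17883 to 28813 normalized counts with fluoxetine (median 25413) and 17222 to 63248 with vehicle (median 20960). By these medians the fluoxetine males were higher, and the vehicle males reached the highest level. The leading members were Egr3 (0.13 ± 0.144), Fosl2 (-0.080 ± 0.112) and Sik1 (-0.13 ± 0.182). These genes spread widely between libraries: Egr3 was at 2717 to 4213 normalized counts with fluoxetine and 2174 to 5434 with vehicle.

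Synaptic genes showed medians close to 0. Glutamate receptors and postsynaptic scaffolds had 21 of 34 above 0 and a median of 0.017, with 0 at an unadjusted p under 0.05. Homer2, a scaffold of metabotropic receptors, had -0.11 ± 0.070, Grin2b, an NMDA receptor subunit, 0.092 ± 0.060, and the kainate receptor Grik3 0.090 ± 0.063. GABA signalling had 16 of 23 above 0 and a median of 0.021, again with 0 at an unadjusted p under 0.05. Among its leading members were the receptor subunits Gabrg3 (0.10 ± 0.063) and Gabra2 (-0.13 ± 0.079). The machinery of presynaptic release had 22 of 29 above 0, a median of 0.039 and 0 at an unadjusted p under 0.05, led by the vesicle protein Vamp1 (0.18 ± 0.092) and the complexins Cplx1 (0.090 ± 0.051) and Cplx2 (0.16 ± 0.11). The glutamate, GABA and presynaptic medians were nearer to 0 without the striatal-rich libraries, at 0.0034, 0.013 and 0.010.

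Voltage-gated channels had 19 of 28 above 0 and a median of 0.053 (0.030 without the striatal-rich libraries), and 1 had an unadjusted p under 0.05. This was Kcna1, a potassium channel of axons, at 1502 to 2640 normalized counts with fluoxetine (median 2335) and 1186 to 2189 with vehicle (median 1938), a log2 difference of 0.27 ± 0.12. Cacna1d, a calcium channel, had -0.11 ± 0.076. Perineuronal net and matrix genes, whose products wrap fast-spiking interneurons, had 8 of 19 above 0 and a median of -0.046 (-0.026 without those libraries). Tnc, a matrix glycoprotein, was at 224 to 437 normalized counts (median 292) against 287 to 612 (median 392), a log2 difference of -0.37 ± 0.138. Hapln2, a link protein of the node of Ranvier, had 0.37 ± 0.173, and Ptprz1, a receptor phosphatase that binds tenascin, -0.12 ± 0.062.

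Of the process lists, cholesterol synthesis and uptake had the largest share of members at an unadjusted p under 0.05. Neurons and glia make their own cholesterol, since it does not cross the blood-brain barrier, and the genes of the pathway share the transcription factor Srebf2. Of 25 genes, all tested, 21 lay below 0 and 4 above, with a median of -0.087, and 9 (against a background of 2.63%) had an unadjusted p under 0.05 with a lower level. The leading genes included the last reductase of the pathway, Dhcr7, and the sterol carrier Stard4. Dhcr7 was at 891 to 1115 normalized counts with fluoxetine (median 1013) and 1059 to 1306 with vehicle (median 1123), a log2 difference of -0.15 ± 0.048. Stard4 was at 827 to 1050 (median 916) against 849 to 1149 (median 1072), a difference of -0.16 ± 0.056. In both the fluoxetine median lay below that of vehicle and the ranges overlapped. Others of the 9 were Insig1, the sterol sensor (-0.12 ± 0.044), Sqle (-0.13 ± 0.054), Srebf2 itself (-0.087 ± 0.037), Idi1 (-0.13 ± 0.056) and Acat2 (-0.092 ± 0.043).

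The group median was -0.055 in females and -0.13 in males. In the WT-labelled libraries, which share none with the 19, it was -0.10, with 23 of 25 genes below 0 and 12 lower at an unadjusted p under 0.05 (5.87% of all genes there), but 0 after adjustment (limma). The difference between genotypes had a median of 0.024 over the 25 genes. With the olfactory bulb and striatal marker levels as covariates the HT-labelled median was -0.12, with 23 of 25 below 0, and without the striatal-rich libraries it was also -0.12. Summed over the 25 genes, the libraries ran from 46556 to 58142 normalized counts with fluoxetine (median 53629) and from 49348 to 60095 with vehicle (median 58546). Of the 10 vehicle libraries, 6 lay above all fluoxetine libraries and 4 lay among the lower fluoxetine values.

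**Figure D3:**
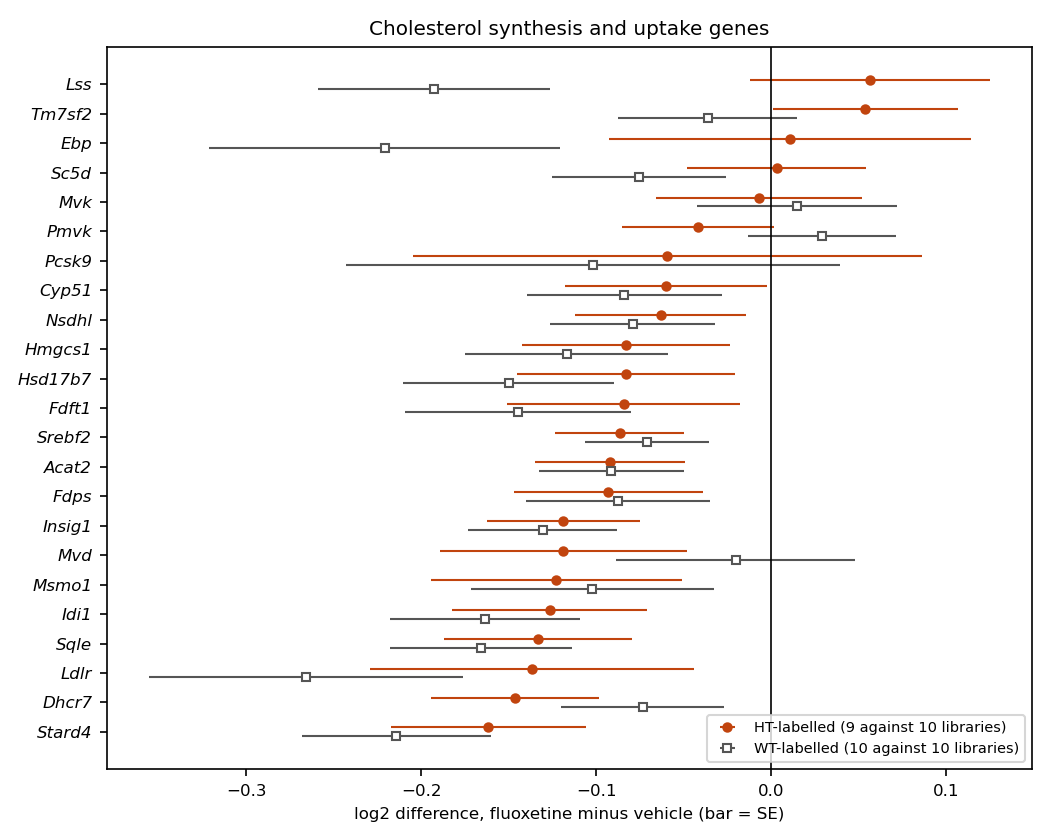
Log2 difference between fluoxetine and vehicle with its SE (x axis) for 23 of the 25 cholesterol genes (y axis) in HT-labelled (filled) and WT-labelled (open) libraries. Filled points lie below 0 for 19 of the 23 genes and open points for 21.

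Since these genes share a regulator, their promoters were searched for the classical sterol regulatory element to which it binds, TCACNCCAC, on both strands in the 250 bases before the gene start. Promoter sequences are those of RefSeq on GRCm38.p6, and 17 of the 25 genes were in the table. The motif was found in 1 of the 17, Hmgcs1, and in 331 of 27025 genes in all (1.22%). Hmgcs1 is an early enzyme of the pathway and had a log2 difference of -0.083 ± 0.060. The stretch around the motif, at chr13:119690168-119690268 on the plus strand, is shown because it is the one match among the cholesterol genes, with the motif in capitals.
Hmgcs1: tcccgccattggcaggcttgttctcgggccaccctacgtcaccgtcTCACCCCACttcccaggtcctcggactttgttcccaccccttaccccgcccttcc
The motif starts 137 bases and ends 129 bases before the gene start. A match is a description of the letters and no evidence of binding in this tissue, and the absence of a match in the other 16 says nothing of their regulation.

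Fluoxetine is a cationic amphiphilic molecule, a class of drugs that gather in lysosomes and can slow the breakdown of phospholipids. Sphingolipid and phospholipid breakdown genes had 11 of 18 above 0 and a median of 0.017, with 0 at an unadjusted p under 0.05. Asah2, a ceramidase, had 0.21 ± 0.11, Smpd1, the lysosomal sphingomyelinase, 0.097 ± 0.050, and Cers2, a ceramide synthase, 0.14 ± 0.079. Lysosome and autophagy genes had 24 of 32 above 0 and a median of 0.033, again with 0 at an unadjusted p under 0.05. Their leading members were the autophagy genes Gabarapl1 (0.092 ± 0.047), Atg7 (0.10 ± 0.055) and Atg5 (0.061 ± 0.035). The medians of these lists were 0.029 and 0.021 without the striatal-rich libraries.

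Stress response genes were spread on both sides of 0. Endoplasmic reticulum chaperones and the unfolded protein response had 10 of 24 above 0 and a median of -0.0070, led by the co-chaperone Dnajb9 (0.10 ± 0.036), the sensor Atf6 (0.095 ± 0.069) and the disulfide isomerase Pdia4 (-0.085 ± 0.065). The sexes lay on opposite sides, with 19 of 24 below 0 in females (median -0.056) and 22 of 24 above 0 in males (median 0.047), and 0 of the 24 passed the test of the sex interaction (limma). The ATF4 amino acid response had 14 of 22 above 0 and a median of 0.011. Its leading member was Slc7a11, the cystine-glutamate exchanger, at 1560 to 2368 normalized counts with fluoxetine (median 1825) and 1941 to 2631 with vehicle (median 2122), a log2 difference of -0.25 ± 0.080. Chac1, which degrades glutathione, had 0.17 ± 0.087 and the asparaginyl-tRNA synthetase Nars 0.056 ± 0.034. Heat shock chaperones had 10 of 19 above 0 and a median of 0.012, with Hspa1a at -0.19 ± 0.065, Cryab at 0.18 ± 0.11 and Ahsa1 at 0.048 ± 0.033. Without the striatal-rich libraries the unfolded protein list had 13 of 24 above 0 and a median of 0.00099, the ATF4 list 10 of 22 and -0.0074, and the heat shock list a median of 0.0054.

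Ribosomal and mitochondrial genes were examined next. Cytosolic ribosomal proteins had 51 of 79 above 0 and a median of 0.012, and 6 were higher at an unadjusted p under 0.05 and 0 lower. With the striatal-rich libraries left out, 39 of the 79 lay above 0 and the median was -0.0023. In the WT-labelled libraries 72 of the 79 lay above 0, with a median of 0.073, 36 higher at an unadjusted p under 0.05 (6.63% of all genes there) and 3 called. The genotype difference had a median of -0.054 and 13 lower members at an unadjusted p under 0.05 (2.95% of all genes). Rpl24 was at 3158 to 3523 normalized counts with fluoxetine (median 3414) and 2469 to 3424 with vehicle (median 3059), a log2 difference of 0.16 ± 0.054 (0.064 in females and 0.26 in males, a difference between the sexes that did not pass the test). Rpl14 had 0.12 ± 0.040 and Rpl27 0.14 ± 0.054. Salmon shares reads among near-identical copies, so the values of ribosomal protein genes, which have many pseudogenes, are uncertain.

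Mitochondrial ribosomal proteins had 43 of 63 above 0 and a median of 0.017 (0.026 without the striatal-rich libraries), with 6 higher and 1 lower at an unadjusted p under 0.05. Besides Mrpl21, the leading members were Mrps24 (-0.17 ± 0.064) and Mrpl14 (0.14 ± 0.055). Nuclear genes of oxidative phosphorylation had 51 of 74 above 0 and a median of 0.020, with 2 higher and 5 lower at an unadjusted p under 0.05. Ndufb2, the gene with the smallest p of all, therefore stood against the direction of most of its group, as did Cox5a, a subunit of cytochrome c oxidase, at 2387 to 2975 normalized counts against 2595 to 2998 (-0.11 ± 0.033). Ndufa5, another complex I subunit, had 0.11 ± 0.039. The 13 genes encoded by the mitochondrial genome had 10 above 0 and a median of 0.036, with 0 at an unadjusted p under 0.05, led by mt-Atp8 (0.12 ± 0.083), mt-Atp6 (-0.25 ± 0.18) and mt-Nd6 (0.099 ± 0.077).

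Genes of the glucocorticoid receptor and its response, a pathway tied to stress hormones, had 17 of 20 above 0 and a median of 0.071, with 0 at an unadjusted p under 0.05. The median was 0.024 in females (12 above 0) and 0.12 in males (16 above 0). In the WT-labelled libraries it was 0.016, with 11 above 0. Sgk1, a kinase induced by glucocorticoids, was at 1421 to 2258 normalized counts (median 1796) against 1280 to 1905 (median 1547), a log2 difference of 0.16 ± 0.085. Sult1a1, a sulfotransferase, had 0.22 ± 0.11, Arrdc2 0.19 ± 0.11 and the co-chaperone Fkbp5 0.11 ± 0.078. The receptor genes Nr3c1 and Nr3c2 had -0.0092 ± 0.085 and 0.029 ± 0.049. Circadian clock genes had 4 of 19 above 0 and a median of -0.027 (-0.055 without the striatal-rich libraries), led by the repressor Nr1d2 (-0.067 ± 0.032), Per3 (-0.071 ± 0.046) and Per2 (-0.13 ± 0.095). Interferon response genes had 10 of 27 above 0 and a median of -0.048, but 14 of 27 above 0 and a median of 0.0068 without the striatal-rich libraries. Irf9, the DNA-binding subunit of the interferon-activated factor, was at 324 to 415 normalized counts with fluoxetine (median 371) against 371 to 535 (median 444), a log2 difference of -0.25 ± 0.079, whereas H2-D1, a class I histocompatibility gene, had -0.087 ± 0.059 and Xaf1 0.18 ± 0.14.

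Chromatin genes were considered because the mutated gene is a chromatin remodeller. The 10 CHD family members divided into 5 above and 5 below 0, with a median of -0.0012 (-0.0028 without the striatal-rich libraries and 0.0052 with the olfactory bulb and striatal levels as covariates) and 0 at an unadjusted p under 0.05. Chd2 had -0.091 ± 0.049, Chd1l 0.097 ± 0.054 and Chd9 0.15 ± 0.090. Chromatin regulators linked to autism had 10 of 29 above 0 and a median of -0.031 (-0.019 without the striatal-rich libraries), with 0 at an unadjusted p under 0.05, led by Phf12 (-0.11 ± 0.056) and Wac (-0.074 ± 0.039). In the WT-labelled libraries 27 of these 29 lay below 0, with a median of -0.066. Regulators of transcription elongation around PAF1 and P-TEFb had 8 of 18 above 0, a median of -0.0084 and 2 lower at an unadjusted p under 0.05, among them Cdc73. The median of these 18 was 0.0015 without the striatal-rich libraries, with 9 above 0. Rtf1, which associates with the PAF1 complex, had 0.063 ± 0.034. Wnt and beta-catenin genes, a pathway that CHD8 is known to modulate, had 8 of 31 above 0 and a median of -0.048. Ctnnb1, which encodes beta-catenin, was at 18468 to 21542 normalized counts (median 20258) against 19743 to 23890 (median 20964), a log2 difference of -0.072 ± 0.033. The receptor Fzd1 had -0.12 ± 0.059 and the transcription factor Tcf7l1 -0.22 ± 0.12.

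Markers of cell types and regions follow. In bulk tissue, fewer cells of a type and less RNA per cell cannot be told apart. Mature oligodendrocytes wrap axons in myelin, and myelination of the cortex is under way at weaning. All 16 of their markers were tested and all lay above 0, with a median of 0.32, and 6 had an unadjusted p under 0.05 against a background of 2.46%. Mobp, a myelin structural protein, was at 14235 to 27170 normalized counts with fluoxetine (median 21798) and 11899 to 19966 with vehicle (median 14621), a log2 difference of 0.43 ± 0.176. Mal, a membrane protein of myelin, was at 4626 to 11882 (median 7700) against 3690 to 6598 (median 4968), a difference of 0.48 ± 0.208. Opalin was at 291 to 736 (median 526) against 192 to 453 (median 365), a difference of 0.48 ± 0.223. For each of these 3 genes, 6 of the 9 fluoxetine libraries lay above every vehicle library and the other 3 lay within the vehicle range. The other 3 were Mbp (0.32 ± 0.151), Mag (0.37 ± 0.178) and Mog (0.35 ± 0.170).

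The summed level of the 16 genes was 146076 to 250461 normalized counts with fluoxetine (median 216746) and 116759 to 205643 with vehicle (median 155301). The list median was 0.42 in females and 0.20 in males. In the WT-labelled libraries all 16 lay below 0, with a median of -0.17, and 1 was lower at an unadjusted p under 0.05 (5.87% of all genes there). The summed level of the WT-labelled libraries was 77659 to 238593 normalized counts with fluoxetine (median 145386). With vehicle it was 137872 to 202174 (median 157964), within the range of the WT fluoxetine libraries. The difference between the genotypes was above 0 for all 16, with a median of 0.49, and 13 had an unadjusted p under 0.05 (background 3.22%), among them Aspa (0.47) and Gjb1 (0.68), but 0 passed the adjustment (limma). Striatal markers lay on the same side, with 15 of 15 log2 differences above 0. Their summed level was 10037 to 22032 normalized counts with fluoxetine (median 14371) and 9361 to 30732 with vehicle (median 12091). Whether the 2 lists vary together between libraries, and the part of striatal tissue in the result, was not tested. With the olfactory bulb and striatal levels as covariates the myelin median was 0.19, with 16 of 16 above 0 and 1 at an unadjusted p under 0.05. Without the striatal-rich libraries it was 0.26, with 16 of 16 above 0 and 0 at an unadjusted p under 0.05. That fit lost HT fluoxetine female replicates 1 and 2 and HT vehicle female replicate 3. Over all genes 583 had an unadjusted p under 0.05 in it, against 857 in the main fit (limma). Counts at that threshold are therefore not directly comparable between the fits.

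Earlier stages of the lineage differed less. Premyelinating oligodendrocytes had 6 of 9 above 0 and a median of 0.090 (0.0018 with the regional markers as covariates), led by Neu4, a sialidase (0.20 ± 0.076), Bmp4 (-0.36 ± 0.20) and Bcas1 (0.18 ± 0.11). Oligodendrocyte precursors had 4 of 9 above 0 and a median of -0.017, with 0 at an unadjusted p under 0.05, but 6 of 9 above 0 and a median of 0.052 without the striatal-rich libraries. The lineage transcription factors Olig2 and Sox10 had 0.12 ± 0.063 and 0.14 ± 0.096, and the surface proteoglycan Cspg4 0.077 ± 0.057. Astrocytes had 6 of 14 above 0 and a median of -0.014 (-0.023 without those libraries and 0.0021 with the covariates), with the water channel Aqp4 at -0.23 ± 0.10, the glycolytic enzyme Aldoc at 0.12 ± 0.053 and the folate enzyme Aldh1l1 at 0.11 ± 0.069.

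Border macrophages live in the meninges and around vessels. All 6 of their markers lay below 0, with a median of -0.38, and 3 had an unadjusted p under 0.05. Mrc1, the mannose receptor, was at 132 to 334 normalized counts with fluoxetine (median 232) and 196 to 453 with vehicle (median 334), a log2 difference of -0.51 ± 0.162. F13a1, a coagulation factor subunit, was at 36.9 to 190 (median 109) against 85.5 to 210 (median 156), a difference of -0.59 ± 0.225. Lyve1, a hyaluronan receptor, was at 30.3 to 87.5 (median 53.1) against 38.6 to 163 (median 74.7), a difference of -0.45 ± 0.223. The medians lay lower with fluoxetine and the ranges overlapped widely. Without the striatal-rich libraries the list median was -0.11, with 4 of 6 below 0 and 0 at an unadjusted p under 0.05. Fewer genes in all reached that threshold in this smaller fit, 583 against 857 (limma). In the main fit the list median was -0.64 in HT-labelled females and -0.28 in HT-labelled males. In the WT-labelled libraries all 6 markers also lay below 0, with a median of -0.19 and 0 at an unadjusted p under 0.05.

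Meningeal fibroblasts, the neighbours of these macrophages, had 13 of 13 markers below 0 and a median of -0.25, with 0 at an unadjusted p under 0.05. Dcn and Ogn, small matrix proteoglycans, had -0.32 ± 0.17 and -0.36 ± 0.19, and the collagen Col1a2 had -0.33 ± 0.18. Without the striatal-rich libraries the median was -0.15, again with 13 of 13 below 0. Their summed level was 21769 to 38321 normalized counts with fluoxetine (median 25737) and 24391 to 44739 with vehicle (median 30978). The list median was -0.37 in females and -0.18 in males. In the WT-labelled libraries 10 of the 13 lay below 0, with a median of -0.20. There 1 was lower at an unadjusted p under 0.05 (5.87% of all genes). Border macrophage and meningeal markers thus lay on the same side of 0, and how far the 2 lists move together was not tested. Microglia, the macrophages of the tissue itself, had 3 of 14 above 0 and a median of -0.053, with 0 at an unadjusted p under 0.05. Itgam had -0.11 ± 0.072, P2ry12, the receptor that marks resting microglia, -0.11 ± 0.083, and Trem2 -0.12 ± 0.097. The list median was -0.16 in females and 0.044 in males. It was -0.00041 over both sexes without the striatal-rich libraries, with 7 of 14 above 0.

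Vessel markers had list medians a little below 0 over both sexes, with members on both sides. Endothelial genes had 4 of 12 above 0 and a median of -0.027 (-0.056 without the striatal-rich libraries), and 3 were lower at an unadjusted p under 0.05: the angiopoietin receptor Tek (-0.17 ± 0.057), the junction cadherin Cdh5 (-0.20 ± 0.077) and Itm2a (-0.11 ± 0.053). Mural cells, which are pericytes and smooth muscle, had 4 of 10 above 0 and a median of -0.030, and 2 were lower, Rgs5 (-0.17 ± 0.059) and Vtn (-0.19 ± 0.092). Atp13a5, also from pericytes, had -0.12 ± 0.067. Rgs5 was at 3713 to 4833 normalized counts with fluoxetine (median 4430) and 4444 to 5335 with vehicle (median 4911). In the WT-labelled libraries 10 of 12 endothelial genes lay above 0 (median 0.053), as did 6 of 10 mural genes (median 0.016). In the HT-labelled libraries the endothelial median was -0.045 in females and -0.0021 in males. The mural median there was -0.074 in females and 0.025 in males. The choroid plexus and ependyma list, described above (median -0.012 without the striatal-rich libraries), also held Rarres2 (0.18 ± 0.10) and Kl (-0.15 ± 0.19), and 5 of its 11 markers, among them Folr1 and Otx2, were below the expression limit. Blood markers had 4 of 5 above 0 and a median of 0.061, with Alas2 at 0.20 ± 0.27 and the haemoglobins Hbb-bs and Hbb-bt at 0.076 ± 0.23 and 0.061 ± 0.25.

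**Figure D4:**
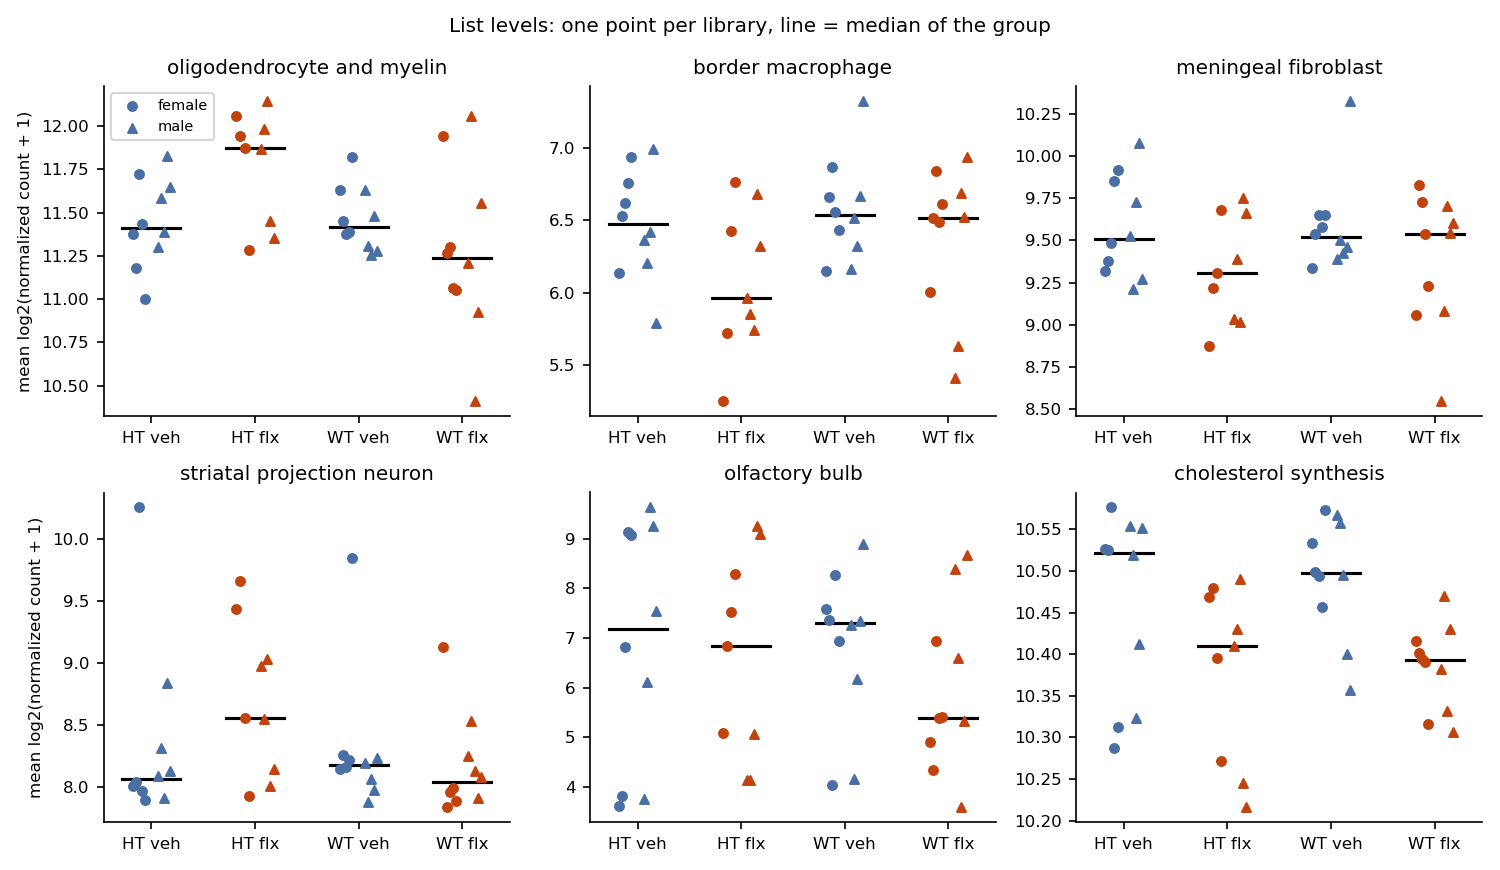
Mean log2(normalized count + 1) over the tested genes of 6 lists (y axis) for each library, by genotype label and treatment (x axis), with circles for females, triangles for males and lines for group medians. Myelin markers have a median of 11.87 in HT fluoxetine against 11.41 in HT vehicle libraries, and olfactory bulb markers range from 3.63 to 9.63 within HT vehicle alone.

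Neuronal markers of the cortex itself are followed by those of other regions. Upper-layer excitatory neurons had 5 of 11 above 0 and a median of -0.053, with Cdh13 at 0.15 ± 0.097, Rasgrf2 at -0.074 ± 0.059 and Calb1 at -0.10 ± 0.086. Deep-layer neurons had 11 of 13 above 0 and a median of 0.15, with 1 at an unadjusted p under 0.05. This was Hs3st4, a heparan sulfate sulfotransferase, at 1011 to 1801 normalized counts (median 1502) against 805 to 1512 (median 1336), a log2 difference of 0.26 ± 0.13, followed by Pcp4 (0.11 ± 0.061) and the corepressor Tle4 (0.18 ± 0.11). With the regional markers as covariates the deep-layer median was 0.042. Markers of all excitatory neurons had 10 of 11 above 0 and a median of 0.054 (6 of 11 and 0.016 without the striatal-rich libraries), led by Tbr1 (0.18 ± 0.11), Sv2b (0.14 ± 0.092) and Neurod2 (0.19 ± 0.14). Cortical interneurons had 10 of 19 above 0 and a median of 0.050 (-0.0015 with the covariates), led by Prox1 (0.17 ± 0.076), the neuropeptide Cort (0.17 ± 0.11) and Lhx6 (0.20 ± 0.13).

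Striatal projection neuron markers had 15 of 15 above 0 and a median of 0.32, with 0 at an unadjusted p under 0.05. A few libraries held much higher levels than the rest, as for Six3. Six3, a striatal transcription factor, was at 0 to 82.3 normalized counts with fluoxetine (median 13.9) and 0 to 132 with vehicle (median 1.04). Its log2 difference was 1.71 ± 1.02, and Scn4b and Pde10a had 0.50 ± 0.36 and 0.21 ± 0.18. Without the striatal-rich libraries the median was 0.24. Olfactory bulb markers had 2 of 9 above 0 and a median of -0.25, but 0.35 in females and -0.87 in males, and 0.20 without the striatal-rich libraries, so they have no stable direction. Tbx21, a transcription factor of bulb output neurons, had -0.73 ± 1.16, Lbhd2 -0.40 ± 0.74 and Doc2g -0.37 ± 0.84. Migrating neuroblasts, which travel to the bulb, had 4 of 13 above 0 and a median of -0.099, with the proliferation genes Mki67 at 0.37 ± 0.17 and Pbk at 0.52 ± 0.27 and the interneuron factor Dlx5 at -0.29 ± 0.35. The neuroblast median was 0.0013 without the striatal-rich libraries, with 7 of 13 above 0.

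The remaining regions held few tested members. Septum and hypothalamus had 1 of 5 above 0 and a median of -0.24, led by Zic4 (-0.33 ± 0.19), Zic2 (-0.24 ± 0.14) and Trpc4 (-0.062 ± 0.056), and its median was -0.071 without the striatal-rich libraries. In this list 7 hypothalamic markers including Oxt and Avp were below the expression limit. Thalamus had 5 of 9 above 0 and a median of 0.030 (-0.011 with the covariates), with Plekhg1 at 0.13 ± 0.065, Ptpn3 at 0.21 ± 0.11 and Amotl1 at -0.10 ± 0.087. Hippocampus had 5 of 10 above 0 and a median of 0.042, with Prox1 as above, Cabp7 at 0.34 ± 0.20 and Zbtb20 at -0.25 ± 0.15.

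**Figure D5:**
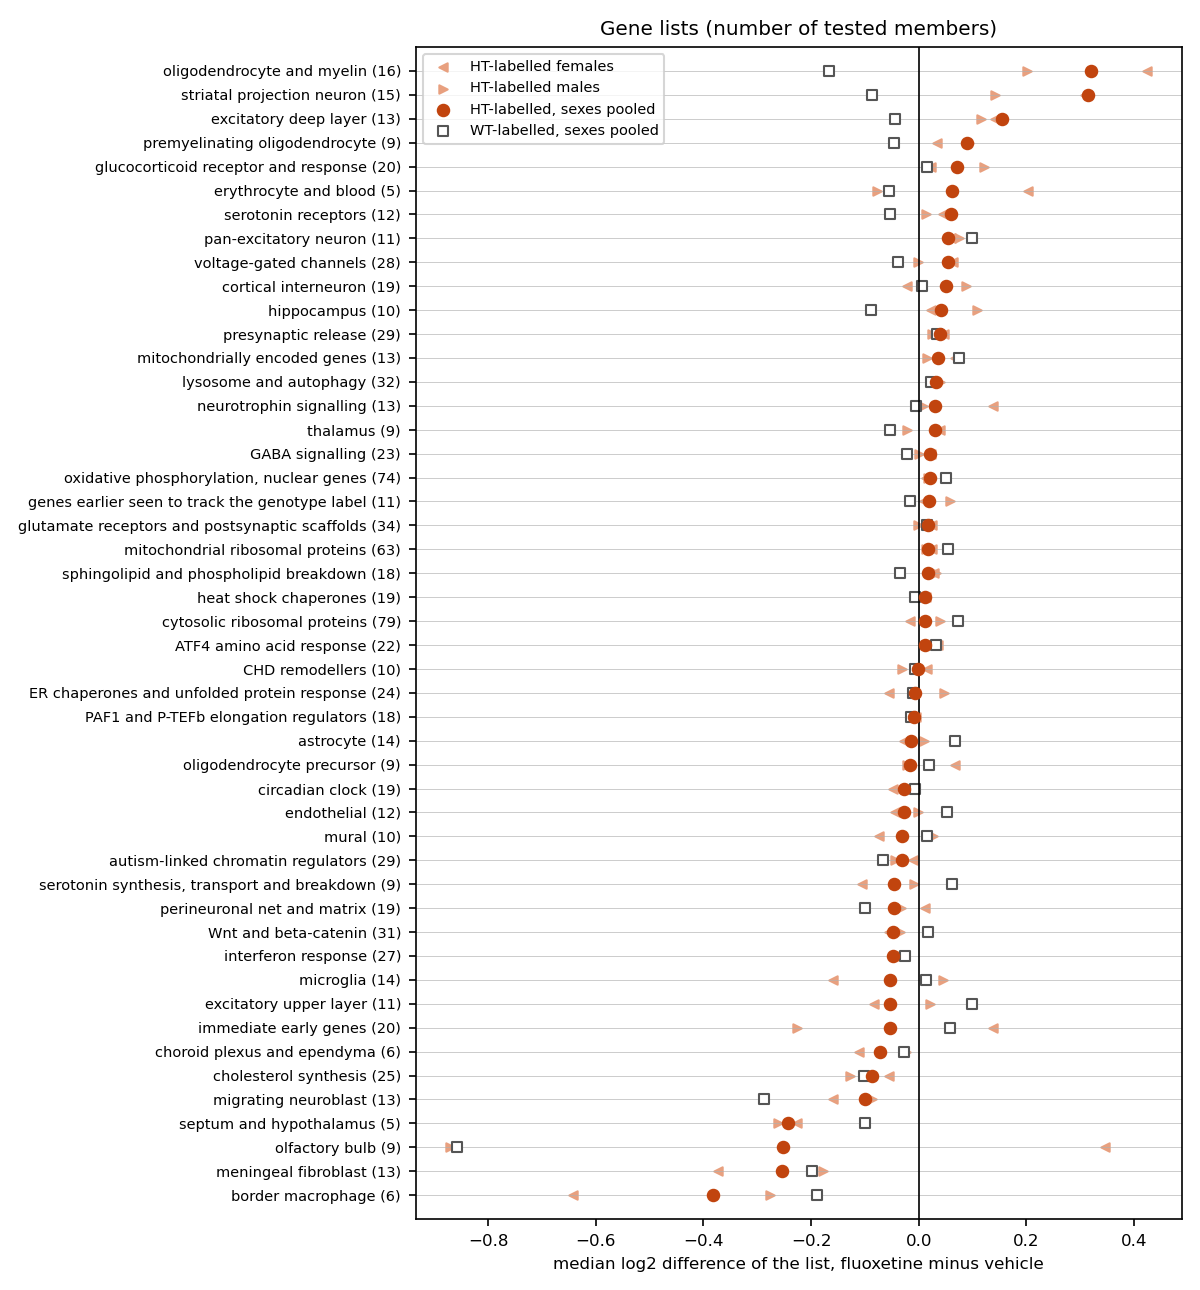
Median log2 difference between fluoxetine and vehicle (x axis) for each of the 48 gene lists (y axis, number of tested genes in brackets), for HT-labelled libraries pooled and by sex and for WT-labelled libraries. Most pooled medians lie close to 0. The myelin and striatal projection neuron lists (0.32 each) lie at the upper end and the border macrophage list (-0.38) at the lower end.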

How the data were processed

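Poly(A)-selected RNA of prefrontal cortex was sequenced with a stranded kit in 59 libraries, per the labels' protocols. The authors deposited 1 table of a normalized signal: counts per gene scaled for each library, for 51456 genes, of which 17301 were at 0 in every library. The submitters' processing notes name GRCm38, DESeq2 1.19.11, Salmon 0.11.2 and R 3.6.0, with no role or order given. The values are not whole (a median of 23.7% of low values in the 19 libraries were whole multiples of the value of 1 read), so no count model was fitted. Symbols were matched for 51285 genes and not for 171. Positions come from the GENCODE annotation of GRCm38.

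Limma 3.58.1 (R 4.3.3, statmod 1.5.0) was run on log2(value + 1) for the 16839 genes with a mean of at least 10 over all libraries. Its model held 12 group means over the 59 libraries. Empirical Bayes shrinkage used a trend and robust fit, p-values were two-sided and adjusted by Benjamini-Hochberg, and a gene was called at an adjusted p under 0.05. On that scale the differences of low genes are understated. The pooled difference averages the female and the male difference, so sex is a block. Sex and genotype interactions used the same model. The fit was checked on simulated data before use. Errors after ± are SE for log2 differences and SD for normalized counts.

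Named genes were Chd8, the 12 genes in each direction with the smallest p and a mean of at least 50, the 3 genes with the smallest p of each interaction and, from each of 48 lists, the 3 genes lowest in p (27 of processes, 21 of markers). Some members of the lists are counted but not reported here. The libraries, members and lists were chosen with earlier results of these data known. The alternatives were TMM factors on the deposited values (trimming 30% of ratios and 5% of levels), plain shrinkage without trend or robust fit, no filter, a pseudocount of 0.5, sample weights, the olfactory bulb and striatal marker levels as covariates, the fit without the 8 striatal-rich libraries, the compared libraries alone, the replicate number as a block, each library left out in turn, and for named genes an exact permutation test within sex. The medians of lists under these alternatives were added after the data were seen. Lithium libraries were not compared. They entered the shared estimate of the spread, the expression limit, the series median behind the striatal-rich libraries (some of which are lithium libraries) and the covariate fit.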

Additional observations from a re-analysis of the deposited data

Results flagged for a closer look

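The highest and the lowest library of each of the 4 HT-labelled fluoxetine and vehicle groups were compared with their neighbours for the 31 genes named first, 248 group ends in all. In 8 of them the gap to the nearest library exceeded Dixon's 95% critical value, and chance alone is expected to do so in about 1 in 20 groups. That rate counts both ends of a group together, so it is not to be applied to the 248 ends.

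In HT vehicle females, replicate 4 stood apart in 3 genes. Chd8 was at 5115 normalized counts there, with the next library at 5840. Ndufb2 was at 1617, with the next at 1349, and Trir at 1305, with the next at 1104. In the same group, replicate 2 held Wnt2b at 51.3 normalized counts, with the next library at 38.7. In HT vehicle males, replicate 2 held Mapkap1 at 1305, with the next at 1490.

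In HT fluoxetine females, Urm1 was at 840 normalized counts in replicate 4, with the next library at 968, and Esd at 1613 in replicate 3, with the next at 1415. In HT fluoxetine males, replicate 2 held Znhit6 at 409 normalized counts, with the next library at 356. With these libraries left out in turn, each of the 24 leading genes kept its sign.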

How the results depend on the processing

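No gene passed an adjusted p of 0.05 for fluoxetine in HT-labelled libraries under any of 28 alternatives run (limma). With the expression limit 583 to 1392 of 16839 genes had an unadjusted p under 0.05, and without it 1699 of 34155. The smallest adjusted p was 0.0632, for Eif2s3y without HT vehicle female replicate 3. The same held for the sex interaction (28 alternatives, smallest adjusted p 0.177, limma) and the genotype interaction (48 alternatives, smallest adjusted p 0.184, limma). At an unadjusted p under 0.05 the sex interaction had 347 to 858 of 16839 genes, and 1132 of 34155 without the limit. The genotype interaction had 855 to 1651 of 16839, and 1757 of 34155 without the limit. Under TMM factors the median difference over all genes shifted by -0.0016. Leaving out each library in turn gave 0 to 0 called genes for each of these.

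The replicate numbers do not name a shared animal or litter. Over 9 same-numbered pairs the correlation of deviations ran from -0.37 to 0.42, and 5 of the 9 were over 0.1. Of the fluoxetine libraries, 2 correlated best with their own number. Such correlations cannot decide whether the numbers stand for a shared litter or batch, since regional markers also vary between libraries. With the replicate number as a block, 0 genes were called and 684 had an unadjusted p under 0.05 for fluoxetine, 347 for the sex interaction and 1223 for the genotype interaction.

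Of 4592 values of 164 named genes, 4587 kept their sign and stayed on their side of the threshold. The other 5 belong to Doc2g, at 0.20 without the striatal-rich libraries, to Hbb-bt, at -0.012, -0.0029 and -0.068 without HT fluoxetine female replicates 2 and 4 and male replicate 5, and to Hbb-bs, at -0.023 without HT fluoxetine male replicate 5. With each library left out in turn, Hbb-bt ran from -0.068 to 0.16 and Hbb-bs from -0.023 to 0.16. The cause was not tested. Exact permutation p-values of the 23 leading genes other than Eif2s3y ran from 0.00025 to 0.019, but the genes were chosen for a small p.

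Among list medians, those of cholesterol (-0.12 to -0.068), myelin (0.19 to 0.40), border macrophages (-0.52 to -0.11) and meningeal fibroblasts (-0.32 to -0.15) kept their sign under all 28 alternatives. That of immediate early genes ran from -0.16 to 0.097, that of markers of all excitatory neurons from -0.0036 to 0.097 and that of olfactory bulb markers from -0.64 to 0.20. Of the 48 list medians, 20 changed sign under at least 1 alternative, 8 of them without the striatal-rich libraries and 5 with the regional covariates. With 9 and 10 libraries, the median SE of 0.0746 and the unknown number of dams limit what can be detected.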
